A study of Sus scrofa with 96 samples.

Results

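The T cell and natural killer (NK) cell genes examined here were CD3D, CD3E, CD3G, CD2, CD8A, LCK, CCL5, GATA3, NKG7 and PRF1, a list of 10 symbols matched to the Ensembl identifiers of the count files. A count row was found for 9 of the 10 among 25880 genes; CD3G had no identifier in the name table and no value is given for it. The study fed pigs (Sus scrofa) either a semi-purified diet without xylose (control) or that diet with 8% D-xylose, a pentose sugar, and asked how the tissues that take up or metabolise xylose respond. RNA came from the mucosa of the jejunum, the liver, the cortex of the kidney and the longissimus dorsi muscle, with 12 libraries for each tissue and diet and 24 animals in the series. The sources used here do not give breed, sex or age. The labels do not tie a library to an animal, so libraries of the 4 tissues were treated as separate samples.

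The small intestinal epithelium holds intraepithelial lymphocytes, T cells that lie between the enterocytes and are for the most part CD8-positive and cytotoxic. A T cell is recognised by its CD3 chains, which carry the signal of the T cell receptor into the cell, where the kinase LCK begins the phosphorylation cascade. Cytotoxic T cells and NK cells kill by releasing granules with perforin and granzymes, and they secrete chemokines such as CCL5.

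Of the 96 libraries, 90 held at least 1000000 counts and were used, 19 from jejunum (9 control, 10 xylose), 23 from liver (12 control, 11 xylose) and 24 each from kidney and muscle (12 per diet). Library totals spanned 1044588 to 6942566 counts (median 3469039), and the jejunum libraries were among the shallower, with 1044588 to 4925124 counts (median 2006321). Count files were matched to samples by the title that their name contains, which for 90 of the 96 files is not the sample they are recorded under. With that assignment 96 of 96 libraries scored highest on the marker list of their labelled tissue. The enterocyte fatty acid binding protein FABP2, for example, had a median of 4258 CPM, its count scaled to a library total of 1000000 in jejunum. A count of 3 corresponded to between 0.432 and 2.87 CPM depending on the library, which is the precision limit for the lowest values below and covers counting error only. In these bulk samples fewer cells of a type and less RNA per cell cannot be told apart.

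The CD3 chains and the adhesion receptor CD2 were at levels in jejunum that almost no library of another tissue reached. CD3D (ENSSSCG00000015093), the delta chain of the CD3 complex, had a lowest value of 20.7, a median of 44.8 and a highest value of 68.0 CPM over the 19 jejunum libraries. In liver its values were 0.462, 2.51 and 6.15 CPM, in kidney 0.574, 2.24 and 4.16 CPM, and in muscle 0, 0.86 and 2.05 CPM, with 2 muscle libraries at 0. No liver, kidney or muscle library reached the lowest jejunum value, so the groups did not overlap. The share of all genes without such overlap was not counted, for this gene or for those below. Between jejunum and liver, kidney and muscle 77.1%, 75.7% and 82% of all tested genes differed past the threshold. CD3D was higher in jejunum by 3.61 ± 0.17 on the log2 scale (SE) than in liver (edgeR adjusted p = 5.091e-36). It was higher by 4.62 ± 0.18 than in kidney and by 4.62 ± 0.19 than in muscle. Within kidney and within muscle CD3D did not pass the filter on low counts, so no p-value is given for these differences. These fold changes are scaled by the trimmed mean of M values (TMM), while CPM values are scaled to the library total.

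CD3E (ENSSSCG00000040140), the epsilon chain, ran from 7.19 to 41.7 CPM in jejunum with a median of 19.1. Liver gave 0 to 2.48 CPM with a median of 0.463 and 4 libraries at 0, muscle 0 to 1.81 CPM with a median of 0.397 and 5 libraries at 0, and kidney 0 to 8.63 CPM with a median of 0.672 and 3 libraries at 0. Of the libraries outside jejunum, 1 kidney library (control 7) reached the jejunum range and lay above 3 jejunum libraries. Outside jejunum the medians of CD3E rested on 2 to 2.5 counts per library and could not be ordered at this depth. The fitted log2 difference was 4.30 ± 0.26 against liver, 4.30 ± 0.24 against kidney and 4.29 ± 0.28 against muscle. Only within jejunum did CD3E pass the filter on low counts. It entered the test through its jejunum level and had to differ, so no p-value is given.

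CD2 (ENSSSCG00000006736), which binds CD58 on other cells and is carried by T and NK cells, had values of 81.0, 138 and 257 CPM in jejunum (lowest, median, highest). The corresponding values were 3.42, 10.1 and 22.4 CPM in liver, 3.73, 10.3 and 33.7 CPM in kidney, and 0.873, 4.19 and 12.3 CPM in muscle. As with CD3D, no library outside jejunum reached the lowest jejunum value. Log2 differences from jejunum were 3.29 ± 0.21 for liver, 3.85 ± 0.21 for kidney and 3.82 ± 0.22 for muscle.

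**Figure D1:**
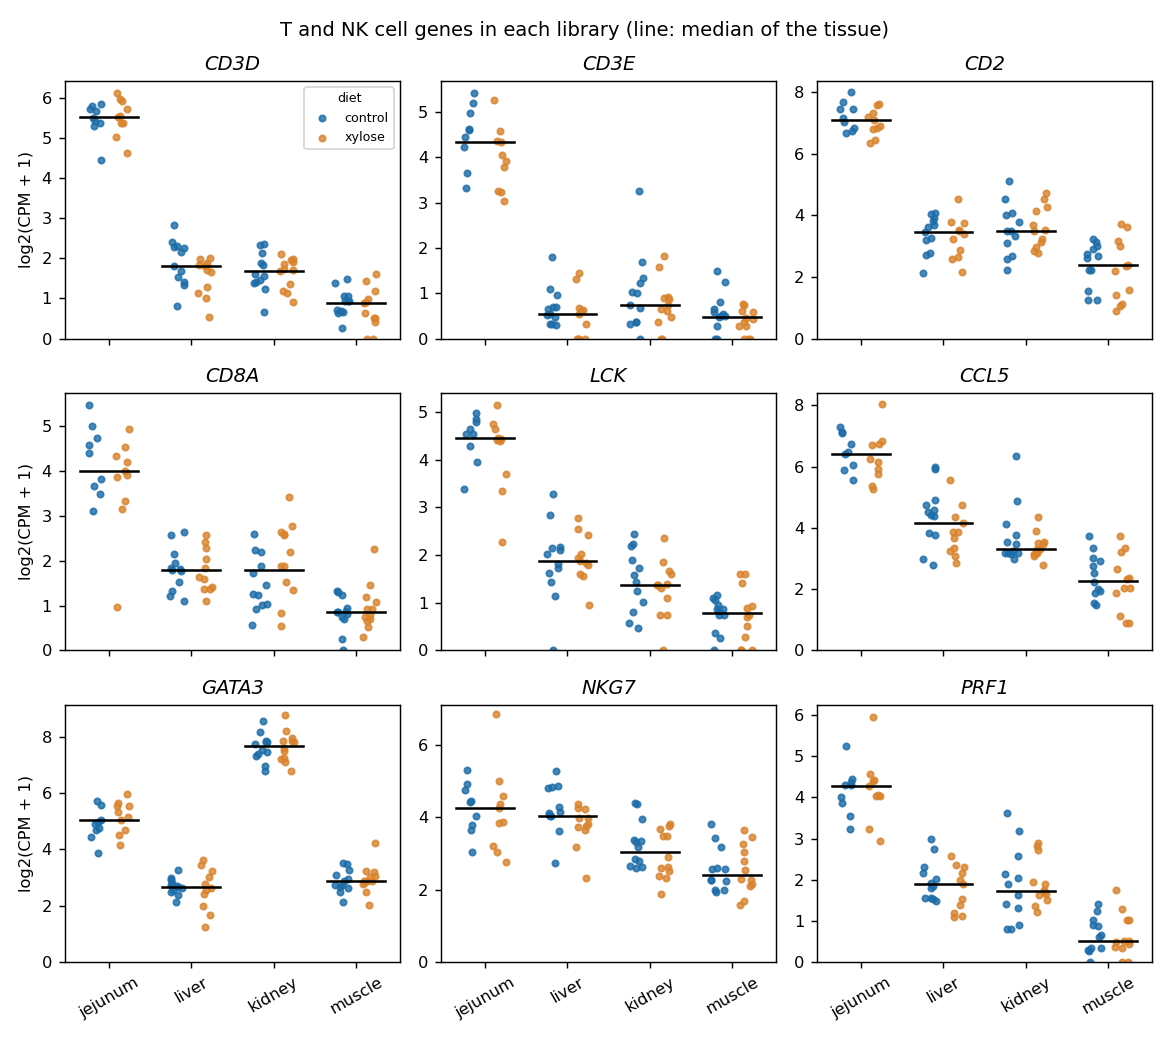
Level of each of the 9 genes, as log2(CPM + 1), in the 19 jejunum, 23 liver, 24 kidney and 24 muscle libraries; each point is a library, blue for control and orange for xylose, and the line is the median of the tissue. CD3D and CD2 separate jejunum from the other tissues with no overlap, GATA3 is highest in kidney, and the NKG7 values of jejunum and liver overlap. How many of all genes separate tissues in this way was not counted.

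The coreceptor and the kinase of the T cell receptor were also higher in jejunum, with more overlap. CD8A (ENSSSCG00000008217), the alpha chain of the CD8 coreceptor, had a jejunum median of 14.9 CPM with a highest value of 42.98, against medians of 2.45 CPM in liver, 2.48 CPM in kidney and 0.818 CPM in muscle. Its lowest jejunum value, 0.957 CPM in xylose 3, rested on 1 count, and all 23 liver libraries lay above it. The next lowest jejunum library stood at 7.53 CPM, above all liver and muscle libraries, whose highest values were 5.21 and 3.75 CPM. LCK (ENSSSCG00000003608) ran from 3.83 to 34.3 CPM in jejunum around a median of 20.8, and its medians were 2.66, 1.61 and 0.725 CPM in liver, kidney and muscle. The lowest LCK value was again that of xylose 3, on 4 counts, and 5 liver and 2 kidney libraries exceeded it. CD8A was higher in jejunum by 2.13 ± 0.23, 2.91 ± 0.23 and 3.07 ± 0.26 on the log2 scale than in liver, kidney and muscle, and LCK by 2.16 ± 0.22, 3.75 ± 0.23 and 3.59 ± 0.25. Of all kept jejunum libraries, xylose 3 also carried the most counts of the other tissues' marker lists, 1.53% of its total, and the part of this in its low values was not tested.

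Among the effector genes, PRF1 and CCL5 were higher in jejunum than in every other tissue, while NKG7 did not differ between jejunum and liver beyond the spread. PRF1 (ENSSSCG00000010271) encodes perforin, the pore-forming protein of cytotoxic granules, and had values of 6.70, 18.2 and 60.8 CPM in jejunum. Its medians elsewhere were 2.71 CPM in liver, 2.31 CPM in kidney and 0.436 CPM in muscle, and 1 liver and 2 kidney libraries exceeded the lowest jejunum value. The log2 differences were 2.13 ± 0.23, 2.86 ± 0.23 and 3.65 ± 0.27 in that order. CCL5 (ENSSSCG00000017705), a chemokine that draws in T cells, ran from 37.3 to 263 CPM in jejunum with a median of 84.6. Liver had a CCL5 median of 16.7 CPM and a highest value of 62.8, kidney 8.86 and 80.4, and muscle 3.86 and 12.4, so 3 liver libraries and 1 kidney library lay inside the jejunum range. CCL5 exceeded liver by 1.66 ± 0.25, kidney by 3.13 ± 0.26 and muscle by 3.18 ± 0.27 on the log2 scale.

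NKG7 (ENSSSCG00000003231), a membrane protein of cytotoxic granules, had values of 5.74, 18.2 and 113 CPM in jejunum and of 3.99, 15.5 and 37.4 CPM in liver. Most of the range was shared, since 21 of 23 liver libraries lay above the lowest jejunum value. The log2 difference between jejunum and liver was -0.07 ± 0.24, with a 95% interval from -0.54 to 0.40 (edgeR adjusted p = 0.791). That result depended on scaling and on a library: scaled to the library total alone it was 0.51 (adjusted p = 0.0383), and without jejunum xylose 7, which held the 113 CPM, it was -0.55 (adjusted p = 0.0149). Against kidney (median 7.27 CPM) and muscle (median 4.37 CPM) NKG7 was higher in jejunum by 1.75 ± 0.24 and 0.96 ± 0.24.

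GATA3 (ENSSSCG00000011125), a transcription factor of the T lineage that is also known from the distal nephron and collecting duct, followed another order. Kidney had 109, 201 and 429 CPM, jejunum 13.8, 32.0 and 61.3 CPM, muscle 3.09, 6.39 and 17.7 CPM, and liver 1.39, 5.31 and 11.3 CPM (lowest, median, highest). Every kidney library lay above every jejunum library, and every jejunum library above every liver library. The log2 difference of jejunum was -2.35 ± 0.17 against kidney (adjusted p = 5.349e-23), 1.94 ± 0.18 against liver and 1.08 ± 0.17 against muscle. In kidney CD3D and CD3E had medians of 2.24 and 0.672 CPM. A list of distal nephron and collecting duct genes, 15 of them in the files, had a median sum of 4508 CPM there. Among its genes, medians were 3505 CPM for uromodulin (UMOD), 239 CPM for the sodium-potassium-chloride transporter SLC12A1 and 189 CPM for the water channel AQP3. The part of nephron cells in the kidney GATA3 level was not tested.

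Counted together, 8 of 9 members were higher in jejunum than in liver, where 41.1% of the 11511 tested genes were higher and 36% lower in jejunum. Against kidney 8 of 9 were higher and 1, GATA3, was lower, beside 38% of all genes higher and 37.7% lower. Against muscle 9 of 9 were higher, beside 43.5% of all genes higher and 38.5% lower. CD3E did not pass the filter on low counts within liver, kidney or muscle, nor CD3D, CD8A, LCK and PRF1 within kidney or muscle. They entered these tests through tissues where they are higher, so the counts of members describe the genes and carry no support of their own. The median log2 difference of the 9 genes was 2.13, 3.13 and 3.59 against liver, kidney and muscle, where the medians over all tested genes were 0.11, 0.00 and 0.11. Scaling to the library total instead moved the median of all genes by 0.59, -0.29 and 1.14 (log2), and NKG7 against liver was the member whose direction it changed.

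Between the tissues other than jejunum the order was less certain. In the TMM-scaled fit liver exceeded kidney in 7 members and was below it in GATA3. Thus 8 of 9 passed the threshold in a comparison where 67.7% of all genes did. The largest of these liver excesses were 1.82 ± 0.23 for NKG7, 1.60 ± 0.24 for LCK and 1.48 ± 0.25 for CCL5. Liver also exceeded muscle in 7 members and was below it in GATA3 by 0.86 ± 0.17 (log2), again 8 of 9 beside 77% of all genes. CD3E was the member that did not pass in either, with log2 differences of -0.00 ± 0.40 and -0.01 ± 0.44. Kidney and muscle differed in 3 of 9 members, beside 76.6% of all genes: GATA3 and PRF1 were higher in kidney by 3.43 ± 0.17 and 0.79 ± 0.30, and NKG7 was lower by 0.78 ± 0.24. Scaling to the library total moved the median of all genes by -0.88 (log2) for liver against kidney and by 1.43 for kidney against muscle. The members past the threshold then became 5 and 9. With that scaling the mean CPM of CD2, CD8A and PRF1 was lower in liver than in kidney. As a percentage of the jejunum mean, CD2 had 6.91% in liver and 8.67% in kidney, CD8A 15.1% and 16.5%, and PRF1 15.3% and 16.9%. The means of LCK, CCL5 and NKG7 stayed higher in liver, and that of CD3D by little, at 2.54 CPM against 2.24 CPM in kidney. CD3E was lower in liver by its mean, at 0.609 CPM against 1.14 CPM. The liver excess over kidney thus depends on scaling for CD2, CD8A and PRF1, and in its size for CD3D.

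Relative to their jejunum mean, the T cell genes did not fall to the level of the enterocyte genes in the other tissues. The 13 counted enterocyte markers had a median of 0.492% of their jejunum mean in liver, 0.83% in kidney and 0.305% in muscle. CD3D stood at 5.58%, 4.94% and 1.87% of its jejunum mean, CD3E at 3.04%, 5.69% and 2.22%, and CD2 at 6.91%, 8.67% and 3.31%. CD8A, LCK and PRF1 had between 15.1% and 15.3% of the jejunum mean in liver and between 3.45% and 5.47% in muscle. The lowest of these percentages rest on few counts and are imprecise. Median counts per library were 2 in liver, 2.5 in kidney and 2 in muscle for CD3E. In muscle they were 3.5 for CD3D, 3 for CD8A and LCK, and 2 for PRF1. CCL5 had 22.1% in liver, NKG7 72.5% in liver and 24.2% in muscle, and GATA3 617% in kidney. Some enterocyte markers are shared with other epithelia, and the highest of the 13 had 35.9% in liver and 31.5% in kidney. All these percentages come from CPM scaled to the library total, and the order of the tissues in them depends on that scaling. NKG7, for example, had 37.8% in kidney and 24.2% in muscle, but was higher in muscle than in kidney in the TMM-scaled fit.

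**Figure D2:**
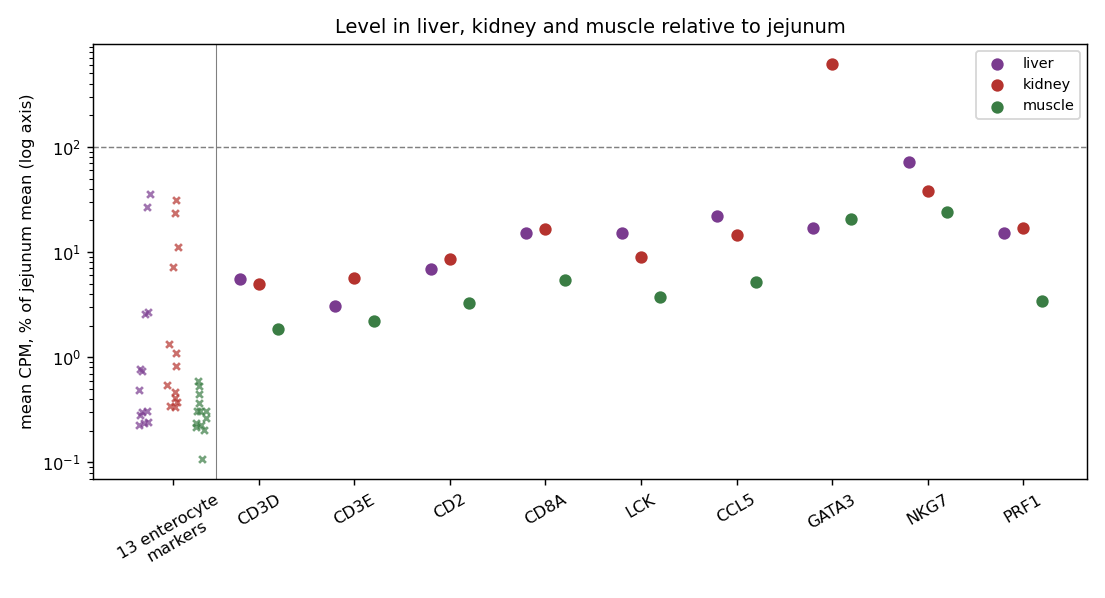
Mean level in liver, kidney and muscle as a percentage of the jejunum mean (log axis, dashed line at 100%); dots are the 9 T and NK cell genes and crosses the 13 enterocyte markers. Means are CPM scaled to the library total, and the order of the tissues depends on that scaling. With it, muscle gives the lowest dot for 8 of the 9 genes, and the GATA3 dot of kidney lies at 617%.

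The wider list of the T cell receptor complex and its signalling held 29 genes, of which 26 were in the files and 16 were tested. In jejunum 14 were higher and 2 lower than in liver, beside 41.1% and 36% of all genes, 16 were higher than in kidney, beside 38%, and 15 higher than in muscle, beside 43.5%. Within jejunum alone 14 genes of the list passed the filter on low counts, against 8 in liver, 5 in kidney and 2 in muscle, so many entered the test through their jejunum level and the counts carry no support of their own. CD247, the zeta chain, had a median of 69.8 CPM in jejunum against 21.3, 49.7 and 16.9 CPM in liver, kidney and muscle. The adaptor TRAT1 had 37.5 CPM against 2.46, 1.68 and 0.439 CPM, and the adaptor GRAP2 22.1 CPM against 0.628, 1.75 and 0.276 CPM. FYN, a kinase related to LCK that many other cells also use, had 64.1 CPM against 21.6, 30.0 and 20.3 CPM. The 2 genes lower in jejunum than in liver were CD4 and SH2D1A, named after their values were seen, with log2 differences of -1.53 ± 0.35 and -1.18 ± 0.24. CD4, the coreceptor of helper T cells and in several species also of some macrophages, had a median of 1.5 CPM in jejunum and 3.43 CPM in liver, while CD8B, the beta chain of CD8, was higher in jejunum than in liver by 1.24 ± 0.29.

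A list of 16 genes covered the homing of lymphocytes to the gut epithelium and their stay there. CCL25, the chemokine made by small intestinal enterocytes, had a median of 476 CPM in jejunum and of 1.72, 2.13 and 1.04 CPM in liver, kidney and muscle. Its receptor CCR9 had 122 CPM against 0.926, 0.704 and 0.584 CPM. ITGAE and ITGB7, the chains of the integrin that binds E-cadherin on enterocytes, had 165 and 155 CPM in jejunum, and no median above 16.9 CPM elsewhere. Of these 16 genes 11 were tested, and 8 were higher in jejunum than in liver, 8 than in kidney and 8 than in muscle, beside 41.1%, 38% and 43.5% of all genes, while 3, 1 and 1 were lower, beside 36%, 37.7% and 38.5%. As CCL25 and CCR9 were near the precision limit outside jejunum, they passed the filter through it and had to differ. S1PR1, a receptor for leaving tissue that endothelial cells also carry, was lower in jejunum in all 3 comparisons, by 3.38 ± 0.18 against liver, with medians of 13.0 CPM in jejunum and 79.7 CPM in liver; the gene was picked after its values were seen.

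Of 26 NK and cytotoxic genes 21 were in the files and 14 were tested. Against liver 5 were higher and 4 lower in jejunum, which is near the 41.1% and 36% of all genes. Against kidney 9 were higher and 1 lower (38% and 37.7% of all genes), and against muscle 9 and 2 (43.5% and 38.5%). The granzyme GZMH had a median of 58.5 CPM in jejunum and of 1.47, 1.54 and 0.528 CPM in liver, kidney and muscle. CD96, a receptor of T and NK cells, had 18.3 CPM against 0.916, 1.06 and 0.218 CPM. IL2RB, the beta chain of the receptors for interleukin-2 and interleukin-15, had 13.5 CPM in jejunum, 4.35 CPM in liver, 16.4 CPM in kidney and 1.38 CPM in muscle, and its log2 difference of 0.14 ± 0.29 between jejunum and kidney did not pass (edgeR adjusted p = 0.665). The chemokine CCL4 stood at 1492 CPM in liver against 17.5 CPM in jejunum. Markers of other leukocytes were present in the jejunum libraries: the summed level of the 11 B cell genes in the files ran from 2.25 to 54.9 CPM (median 13.1) there and had medians of 13.0, 11.8 and 3.10 CPM in liver, kidney and muscle. The joining chain JCHAIN of plasma cells had a median of 30.4 CPM in jejunum, and the leukocyte phosphatase PTPRC 135 CPM against 36.3, 29.3 and 8.66 CPM.

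The spread within jejunum differed between the members. The coefficient of variation over the 19 libraries was 27.0% for CD3D, 31.7% for CD2 and 51.3% for CD3E, where counting alone would give 11.1%, 6.20% and 16.5%. It was 56.4% for CCL5 and 103.2% for NKG7, against 7.60% and 15.6% from counting, and 41.2% and 51.3% without jejunum xylose 7. That library stood out with CCL5 at 263 CPM, NKG7 at 113 CPM and PRF1 at 60.8 CPM, the highest of each, and with LCK at 34.3 CPM. Its CD3E of 19.1 CPM was the jejunum median and its CD8A of 9.0 CPM was among the 4 lowest.

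CD3E did not vary with the other members in a way that passed the test across all genes. Over the 19 jejunum libraries Pearson's r of log2(CPM + 1) with CD3E was 0.62 for CD8A (Spearman's rho 0.66) and 0.60 for CCL5 (rho 0.65), with permutation p-values adjusted over 8866 genes of 0.119 and 0.147. Next came LCK at 0.40, CD2 at 0.33, PRF1 at 0.31, CD3D at 0.30 and NKG7 at 0.21, and GATA3 was at -0.42. None of the 8 other members passed, beside 0% of all genes. With the 5 jejunum libraries under 1000000 counts kept, again none passed, beside 3.08% of all genes (273). In the 19 libraries the 2 members with an unadjusted permutation p under 0.05 were CD8A (0.00222) and CCL5 (0.00601). The smallest adjusted p over the 8866 genes was 0.0887. For several members r with CD3E was unlike in the 2 lanes, a difference that was not tested. CD2 had r of 0.89 in the 8 libraries of lane 7 and -0.11 in the 11 of lane 8, and CD3D 0.45 and -0.47. Lane 7 held replicates 1 to 6 and lane 8 replicates 7 to 12, so lane cannot be told apart from these blocks. The 10 genes most like CD3E were RAB6A (r of 0.82), GABARAP (0.81), RPLP1 (0.80), ODC1 (0.78), PRKACB (0.76), GLOD5 (0.76), RNF167, RIBC1, SLC51A and DDRGK1 (each 0.75). None of them is a gene of the T cell or NK cell lists.

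CD3E was also set beside 18 sums and quality measures of the same libraries. It was lower where the share of counts from 13 mitochondrial genes was higher (r of -0.62, rho of -0.77, permutation p = 0.0021, adjusted over the 18 relations 0.0378), with r of -0.57 and -0.54 in lanes 7 and 8 and -0.64 without the 2 libraries farthest from the CD3E median. The mitochondrial share of jejunum was 13.8 ± 7.32% in lane 7 (SD, 8 libraries) and 6.85 ± 1.44% in lane 8 (SD, 11 libraries). CD3E had r of 0.59 (rho 0.60) with the sum of the T cell receptor list and 0.59 (rho 0.62) with that of the enterocyte list, adjusted p of 0.0481 for each by permutation. In lanes 7 and 8 the first was 0.73 and 0.53 and the second 0.61 and 0.13, and without the 2 farthest libraries they were 0.65 and 0.63. The part of these measures in the CD3E values was not tested.

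Among the 36 pairs of members in jejunum r ran from -0.67 to 0.81 with a median of 0.34, and 28 were positive; within lane 7 the median was 0.57 and within lane 8 0.18. The highest value joined PRF1 and LCK. With PRF1 as the reference, a choice made after the pairs were seen, r was 0.81 for LCK (rho 0.79, permutation p = 3e-05, adjusted over 8866 genes 0.0136), 0.78 for NKG7 (rho 0.59, p = 0.00023, adjusted 0.0208) and 0.77 for CCL5 (rho 0.75, p = 0.00016, adjusted 0.0195). These 3 of 8 members passed, beside 4.84% of all genes. Since PRF1 was chosen by these same pairs, which the adjustment does not cover, that share carries no support of its own. In lanes 7 and 8 r was 0.87 and 0.80 for LCK, 0.88 and 0.77 for NKG7, and 0.80 and 0.75 for CCL5. Without the 2 libraries farthest from the PRF1 median r was 0.78 for LCK, 0.51 for NKG7 and 0.55 for CCL5. Leaving out jejunum xylose 7 alone, LCK kept its call (r of 0.82, adjusted p = 0.0443), whereas NKG7 (0.60, adjusted p = 0.175) and CCL5 (0.62, adjusted p = 0.149) did not pass, and the number of genes that passed fell from 429 to 4.

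**Figure D3:**
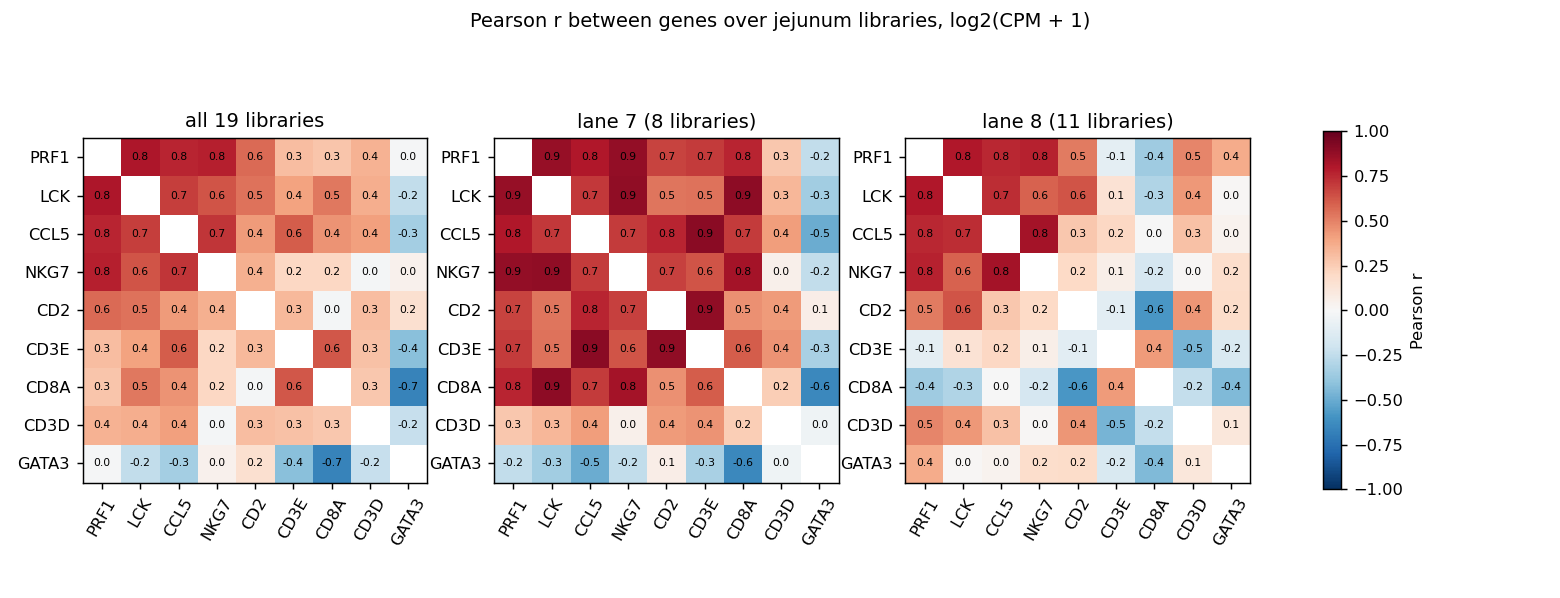
Pearson r between each pair of the 9 genes over the jejunum libraries, for all 19 libraries, for the 8 of lane 7 and for the 11 of lane 8; the colour scale runs from -1 to 1 and each cell gives r to 1 decimal. PRF1, LCK, CCL5 and NKG7 form a block of positive values in all 3 panels, while the values of CD3E and CD8A with that block differ between lanes.

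**Figure D4:**
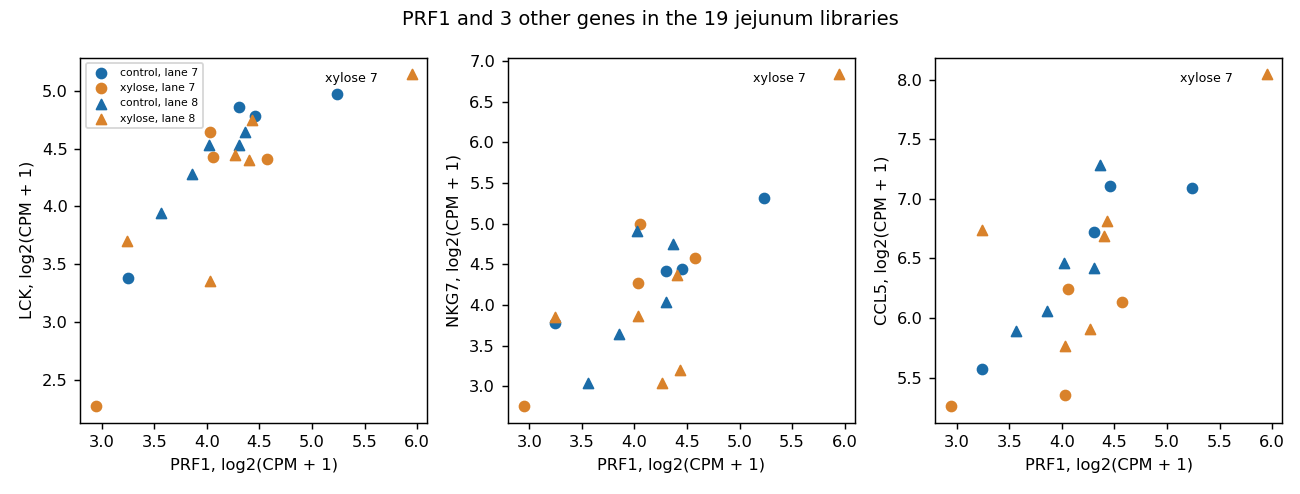
LCK, NKG7 and CCL5 against PRF1, as log2(CPM + 1), in the 19 jejunum libraries; colour gives the diet, circles are lane 7 and triangles lane 8. Xylose 7 lies at the upper right of each panel, and LCK rises with PRF1 among the other libraries too (r of 0.82 without it). The points are scaled to the library total, while r is from TMM-scaled values.

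PRF1 had r of 0.56 with CD2, 0.35 with CD3D, 0.31 with CD3E, 0.28 with CD8A and -0.01 with GATA3, none past the threshold. Cytotoxic genes outside the list, picked after their values were seen, were nearer: GZMH and granulysin (GNLY) each had r of 0.73 with PRF1, with adjusted permutation p-values of 0.0195 and 0.0229 over the 19 libraries. The gene most like PRF1 was CLRN3 (r of 0.89), and SLC15A1, the peptide transporter of the enterocyte brush border, had 0.83. Both GZMH (0.70, adjusted p = 0.0985) and CLRN3 (0.83, adjusted p = 0.0665) were past the threshold only with xylose 7 included.

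The lowest r of the 36 pairs in jejunum joined GATA3 and CD8A, and GATA3 was taken as a reference after this was seen. The adjusted p-value does not cover that choice. Their r was -0.67 (rho -0.60, permutation p = 0.00095, adjusted 0.00767), -0.64 and -0.44 in lanes 7 and 8, and -0.47 without the 2 libraries farthest from the GATA3 median. CD8A was the 1 member of 8 that passed with GATA3, a smaller share than the 30.7% of all genes that did. GATA3 had a mean of 43.05 CPM in lane 7 and 27.2 CPM in lane 8. Over residuals after diet and lane, r of GATA3 with CD8A was -0.54, and the part of lane in this pair was not tested further.

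Outside jejunum CD3E did not pass the filter on low counts within a tissue, so CD2 served as the reference there, chosen after the data were seen. In jejunum itself r of CD2 with the other members ran from -0.02 for CD8A to 0.56 for PRF1. There 436 of 8866 genes (4.92%) passed with CD2, and 35 without xylose 7. In liver CD2 had r of 0.72 with PRF1 (rho 0.80, permutation p = 9e-05, adjusted over 9193 genes 0.034), and 0.74 and 0.73 in lanes 7 and 8; this was 1 of 7 members tested, beside 3.89% of all genes. Without the 2 libraries farthest from the CD2 median it was 0.77. Leaving out liver control 7, the number of genes that passed with CD2 in liver fell from 358 to 114. In muscle CD2 had r of 0.76 with CCL5 (rho 0.77, p = 3e-05, adjusted 0.0133) and 0.66 with NKG7 (rho 0.63, p = 0.00052, adjusted 0.0443), so 2 of 3 members passed, beside 1.56% of all genes. Lane 7 and lane 8 gave 0.81 and 0.73 for CCL5 and 0.53 and 0.75 for NKG7, and without the 2 farthest libraries r was 0.68 for each. In kidney CD2 had r of 0.47 with CCL5 (rho 0.39, p = 0.0196, adjusted 0.047), 1 of 3 members beside 42.6% of all genes. This call was lost without kidney control 7 (adjusted p = 0.0734), a library with CCL5 at 80.4 CPM, PRF1 at 11.2 CPM and the highest summed pan-leukocyte level in kidney, 558 CPM.

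Xylose did not shift any member past the threshold in jejunum. By edgeR's quasi-likelihood test with lane as a term, 0 of 9 members changed, beside 0% of the 8867 genes tested, and DESeq2 called 0 genes as well. At an unadjusted p under 0.05, 0 of 9 members passed, beside 4.89% of all genes (434 genes). CD3E came nearest: it ran from 8.95 to 41.7 CPM in the 9 control libraries, median 23.4, and from 7.19 to 37.3 CPM in the 10 xylose libraries, median 14.9. The ranges overlapped almost fully, and the log2 fold change, xylose over control, was -0.57 ± 0.28 with a 95% interval from -1.15 to 0.02 (edgeR p = 0.0577, adjusted 0.935). In lane 7 alone it was -1.17 and in lane 8 alone -0.15. Since the mitochondrial share, with which CD3E varied, was 8.32 ± 5.0% in control and 11.1 ± 6.51% in xylose jejunum (SD), its part in this difference was not tested.

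The other jejunum values had intervals that included 0. CD8A had medians of 19.9 CPM (control) and 14.4 CPM (xylose), a fold change of -0.51 ± 0.33 (log2). CD3D (44.4 and 45.4 CPM, 0.11 ± 0.20) and CD2 (142 and 129 CPM, -0.13 ± 0.20) had the narrowest intervals, from -0.31 to 0.52 and from -0.55 to 0.29. LCK (22.2 and 20.4 CPM) gave -0.12 ± 0.28 and GATA3 (28.9 and 36.5 CPM) 0.35 ± 0.21. For CCL5 medians were 87.0 and 72.0 CPM and the fold change -0.13 ± 0.33, but it was -0.92 in lane 7 and 0.47 in lane 8. NKG7 (20.4 and 15.9 CPM, 0.37 ± 0.46) and PRF1 (18.7 and 16.9 CPM, 0.22 ± 0.34) had positive fold changes that turned to -0.36 and -0.11 without xylose 7.

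**Figure D5:**
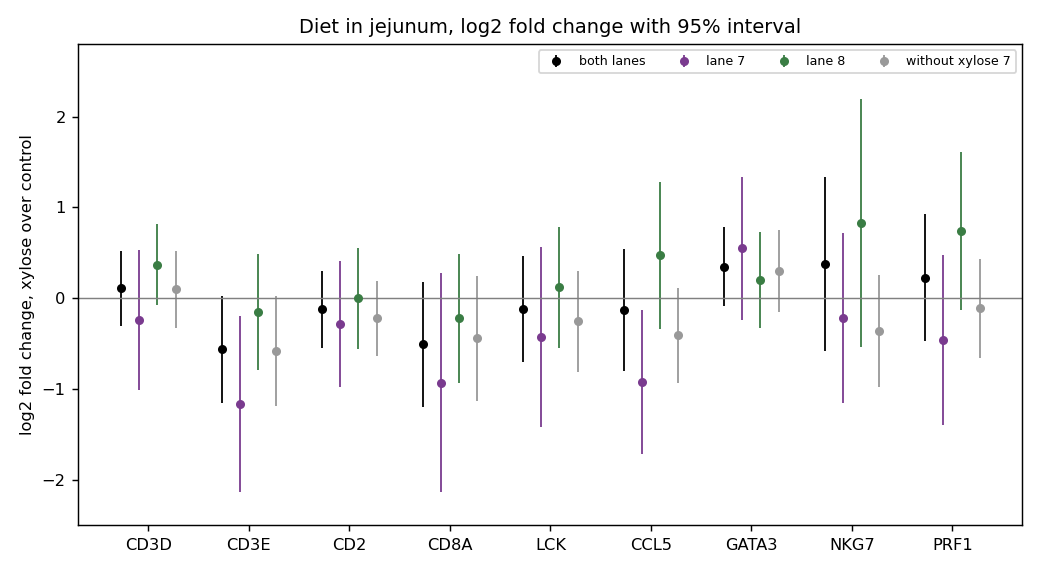
Log2 fold change of each gene in jejunum, xylose over control, with its 95% interval from edgeR, for all 19 libraries (black), lane 7 (purple), lane 8 (green) and without xylose 7 (grey). The 9 black intervals all include 0, and for CD3D, LCK, CCL5, NKG7 and PRF1 the lanes lie on opposite sides of 0.

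In liver 8 members were tested and 0 passed, beside 0% of 9194 genes. NKG7 was the member with an unadjusted p under 0.05 (1 of 8, beside 7.04% of all genes, 647 genes): it ran from 5.70 to 37.4 CPM in control liver, median 16.5, and from 3.99 to 19.5 CPM in xylose liver, median 13.2. Its log2 fold change was -0.54 ± 0.25 (edgeR p = 0.0444, adjusted 0.683), and the other 7 lay between -0.65 and 0.04. DESeq2 also called 0 genes in liver. In kidney 4 members were tested, CD2, CCL5, GATA3 and NKG7, with fold changes between -0.71 and 0.08. By edgeR 0 of 4 passed there, none of them at an unadjusted p under 0.05 either, beside 0% of 10128 genes (773 at an unadjusted p under 0.05, DESeq2 0). The lowest was CCL5, at -0.71 ± 0.36 with all libraries and -0.11 without kidney control 7. The same 4 were tested in muscle, where they lay between -0.27 and 0.12 and 0 passed by edgeR, again none at an unadjusted p under 0.05, beside 0% of 8436 genes (654 at an unadjusted p under 0.05, DESeq2 2). CD3E was too low for a diet test in liver, kidney and muscle. A difference in diet effect between the tissues was tested as an interaction, where 0 of 9 members passed, beside 0.0174% of genes (2 of 11511); CD8A was the member with an unadjusted p under 0.05, at 0.0342, adjusted 0.856.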

How the data were processed

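The authors deposited 1 file of raw counts per gene for each of the 96 libraries, made by 3′ mRNA sequencing (QuantSeq) per the labels' protocols. Per the submitters' processing notes STAR and featureCounts were among the tools, with no version stated. The genome build, the annotation, the use of strand and the handling of multiply mapping reads were not given in the sources used here, so counts of related genes such as GZMH, CCL4 and CCL5 are uncertain. Symbols came from a reference table that names 14855 of the 25880 identifiers.

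Files were assigned by the title in their name and libraries under 1000000 counts were left out. No libraries were duplicates: over 976 pairs within tissues the smallest chi-square per degree of freedom was 6.26. Counts were tested with edgeR 4.0.16 in R 4.3.3 (quasi-likelihood F test, TMM scaling, filterByExpr, Benjamini-Hochberg adjustment, threshold 0.05). Tissues were compared in 1 fit with diet and sequencing lane as terms, and diet within each tissue with lane as a term. CPM are counts scaled to a library total of 1000000. Correlations between genes used log2(CPM + 1) with TMM scaling. The list sums set beside CD3E were log2 of CPM scaled to the library total, and the mitochondrial share was a percentage. Permutation tests were two-sided with 100000 resamples (NumPy 2.4.6, ranks by SciPy 1.17.1), and their smallest possible p is 1e-05. Both steps were tested on simulated data. In the diet and correlation tests p-values measure the spread between libraries within a tissue. The tissue and interaction tests used 1 spread per gene over all 90 kept libraries. They ignore that the series has 24 animals, whose libraries could not be paired.

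All members were named in the comparisons of jejunum with each other tissue and in the correlations with CD3E. For diet within a tissue they were named or given as a range. In the remaining results, such as those between liver, kidney and muscle, some members were left unnamed. The genes most like CD3E were the 10 with the highest r, a symbol and a mean of at least 1 CPM. From other lists, up to 4 genes with the highest jejunum mean and defining markers were named. The members and lists were chosen with earlier results of these data known. Alternatives were DESeq2 1.42.0 as test and its size factors, library totals, no filter, a filter of 1 CPM in 6 libraries, small libraries kept, no lane term, each lane, other pseudocounts (0.1 and 5), diet by the recorded assignment of files, and, chosen after the data were seen, single libraries left out.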

Additional observations from a re-analysis of the deposited data

Results flagged for a closer look

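For the 9 genes and their sum, each in control and in xylose jejunum, 20 groups were examined. In 6 of them the highest library lay farther from the next than Dixon's 95% critical value allows. For independent, normally distributed values chance flags about 1 in 20 groups. Here CPM were not transformed, the groups share libraries and the sum holds the same genes, so that rate does not apply. Jejunum xylose 7 accounts for 4 of the 6 flags and their values come from the same library: CCL5 at 263 CPM (next highest 112 CPM), NKG7 at 113 CPM (next 30.9 CPM), PRF1 at 60.8 CPM (next 22.8 CPM) and the summed members at 780 CPM (next 467 CPM). That library also had the highest sum of enterocyte markers among the jejunum libraries, 33129 CPM. The other flags were PRF1 in jejunum control 1, at 36.7 CPM with the next at 20.9 CPM, and CD3E in jejunum xylose 11, at 37.3 CPM with the next at 23.0 CPM.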

How the results depend on the processing

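Of the 9 members' fold changes between jejunum and each other tissue under the alternatives, 313 kept their direction and side of the threshold. The exceptions were NKG7 in jejunum against liver, 0.51 by library total and -0.55 without jejunum xylose 7. Between the other tissues only the count of members past the threshold was followed, which by library total became 5 for liver against kidney and 9 for kidney against muscle. Of the diet fold changes of the 9 members in jejunum and of NKG7 in liver, 104 kept their direction and 15 reversed, none past the threshold; those of other members were not followed. In jejunum these were CD3D -0.24, NKG7 -0.22 and PRF1 -0.46 in lane 7, LCK 0.12 and CCL5 0.47 in lane 8, NKG7 -0.36 and PRF1 -0.11 without xylose 7, and LCK 0.028 and CCL5 0.0056 without the library with most counts of other tissues' markers. With diet taken from the sample a file is recorded under, and tissue still from the file's title, diet and lane cannot be told apart; CD3E was 0.41, CD8A 0.49, LCK 0.0019, CCL5 0.39 and GATA3 -0.65 (edgeR adjusted p = 0.0556) in jejunum and NKG7 0.095 in liver, and 962, 292, 1 and 2 genes passed in jejunum, muscle, liver and kidney, with no member among them. With libraries under 1000000 counts included, 273 genes and none of the members passed for r with CD3E. Of the members' r with CD3E, 77 kept their sign and 3 reversed in lane 8: CD3D at -0.47, CD2 at -0.11 and PRF1 at -0.10. Members past the threshold with PRF1 fell from 3 to 1 without jejunum xylose 7. The causes were not tested. CD3E did not pass the filter in liver, kidney and muscle, and its correlations there were not run. No paired analysis was possible because replicate numbers follow accession order only and the labels do not tie libraries to animals. Depth limits the values outside jejunum, where CD3E rests on a median of 2 to 2.5 counts.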
